A study of Homo sapiens with 26 samples.

Results

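The 10 immediate early genes EGR1, EGR2, EGR3, FOS, FOSB, JUN, JUNB, IER2, DUSP2 and NR4A1 were followed through every RNA-seq library of the series, among 58592 genes in all. They were taken as a given list of gene names, chosen with earlier results of these data known. Each was found once in the gene annotation, and all 10 had enough reads to be tested in every comparison. The libraries came from OCI-Ly7 and SUDHL4, established human lines of diffuse large B cell lymphoma of the germinal centre B cell type. All cells of both lines, controls included, carried a catalytically dead Cas9 fused to BFP and the KRAB repressor domain, delivered by lentivirus and driven by the SFFV promoter. They received a further lentivirus with a guide RNA against POU2F2, a guide against POU2AF1, or a non-targeting guide as control, which directs the repressor to that gene's promoter or, for the control, to none. POU2F2 encodes OCT2, a transcription factor that binds the octamer motif, and POU2AF1 encodes OCA-B, the B cell coactivator that OCT proteins recruit. OCI-Ly7 was grown in IMDM with serum and SUDHL4 in RPMI with serum. The sources used here state neither how many guides were used nor whether a line was 1 clone.

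Immediate early genes are transcribed within minutes of a stimulus from factors that are already in the cell, and their RNAs are short-lived. In B cells the antigen receptor and other signals reach them through the ERK kinases, calcium and NF-kB. EGR1, EGR2 and EGR3 are zinc finger transcription factors, FOS, FOSB, JUN and JUNB are subunits of the AP-1 transcription factor, NR4A1 is an orphan nuclear receptor, IER2 is a nuclear protein of the early response, and DUSP2 is a phosphatase of the nucleus that inactivates ERK.

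After repeated files were merged, 22 libraries were left. The OCI-Ly7 controls numbered 4, of which batch 1 held 1. Of the 6 OCI-Ly7 libraries with POU2AF1 knockdown, batch 1 held 4, and the labels place all 8 with POU2F2 knockdown in batch 2. The 4 SUDHL4 libraries, of batch 1, were a control, a POU2AF1 knockdown and 2 POU2F2 knockdowns. Most labels of batch 2 name a series (s0 to s3), while POU2F2 knockdown replicate 3 and POU2AF1 knockdown replicate 3 are marked 48 h. OCI-Ly7 control file 3, of batch 1, was also marked 48 h. It equalled, within 2 reads for 93.3% of its genes, the sum of control files 1 and 2 and was dropped. Files 1 and 2, which carry no such mark, form the batch 1 control. Libraries held 26325730 to 59431931 estimated reads in genes, and mitochondrial genes took 7.04% to 14.0% of them in 21 libraries and 25.8% in OCI-Ly7 POU2AF1 knockdown replicate 1. POU2AF1 lay at 445 to 470 CPM in the OCI-Ly7 controls and at 27.3 to 87.9 CPM in its knockdown, and POU2F2 lay at 207 to 406 CPM in the controls and 55.7 to 148 CPM in its knockdown. In SUDHL4, knockdown libraries had 79.8 CPM of POU2AF1 against a control value of 442 CPM, and 43.5 and 55.3 CPM of POU2F2 against 330 CPM. CPM are counts scaled to library size, with TMM normalisation over all 22 libraries. All 8 B cell markers had reads in every library, and 12 myeloid markers summed to 0.354 to 7.36 CPM. The 18 T and NK cell markers summed to 40.9 to 275 CPM. Among them, the T cell receptor constant gene TRAC had 174 to 1887 reads per library and CD3E 20 to 136, while CD3D and CD8A had at most 4 and 2. The labels do not say that replicates came from separate cultures, so the tests below see the spread between libraries and nothing wider, and that spread may be technical.

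The sequences upstream of 4 members are shown because these genes are among those with the main contrasts described here. EGR1 and EGR2 were highest in SUDHL4 after POU2AF1 knockdown, and FOS and JUN in particular OCI-Ly7 libraries. EGR3, also highest in SUDHL4 after POU2AF1 knockdown, is not shown because the promoter set used had no entry for it. Each line holds the 250 bases before the RefSeq start on GRCh38.p14, 5′ to 3′ on the gene's strand. Capitals mark matches to the CArG box, the site of serum response factor, to the octamer ATGCAAAT and to TGACG, the core of the cAMP response element, each searched on both strands.
EGR1, chr5:138465229-138465478, plus strand: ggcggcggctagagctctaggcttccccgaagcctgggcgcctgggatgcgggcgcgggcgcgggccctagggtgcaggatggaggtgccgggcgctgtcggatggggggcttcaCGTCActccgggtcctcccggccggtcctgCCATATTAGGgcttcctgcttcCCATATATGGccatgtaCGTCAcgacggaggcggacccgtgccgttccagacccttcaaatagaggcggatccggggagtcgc
EGR2, chr10:62816367-62816616, minus strand: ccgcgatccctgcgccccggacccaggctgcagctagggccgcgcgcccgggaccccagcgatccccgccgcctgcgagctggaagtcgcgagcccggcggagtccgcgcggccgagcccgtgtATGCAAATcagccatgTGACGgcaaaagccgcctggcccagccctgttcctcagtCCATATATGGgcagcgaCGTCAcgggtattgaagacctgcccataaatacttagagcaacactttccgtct
FOS, chr14:75278578-75278827, plus strand: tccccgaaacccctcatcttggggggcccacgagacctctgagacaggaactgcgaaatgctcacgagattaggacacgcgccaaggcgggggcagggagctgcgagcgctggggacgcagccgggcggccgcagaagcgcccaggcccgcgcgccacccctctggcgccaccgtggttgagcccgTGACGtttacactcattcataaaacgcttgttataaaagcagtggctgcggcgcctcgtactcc
JUN, chr1:58784048-58784297, minus strand: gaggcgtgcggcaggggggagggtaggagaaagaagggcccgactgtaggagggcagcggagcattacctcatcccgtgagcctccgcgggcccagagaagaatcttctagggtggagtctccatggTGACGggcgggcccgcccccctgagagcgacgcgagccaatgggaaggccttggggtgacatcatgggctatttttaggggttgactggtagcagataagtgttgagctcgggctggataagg
The first bases of the CArG matches were 105 and 83 bases before the start of EGR1 (CCATATTAGG and CCATATATGG) and 71 bases before the start of EGR2 (CCATATATGG). EGR2 also held the octamer, 126 bases before its start. Promoters were matched for 9 members, all but EGR3. Windows of 300 bases, from 250 before to 50 after the start, were searched in these and in 34796 RefSeq promoters. The CArG box was found in 2 of the 9 (EGR1 and EGR2) and in 1.3% of all, the octamer in 1 of the 9 and 1.76% of all, and TGACG in 7 of the 9 (EGR1, EGR2, FOS, FOSB, IER2, JUN and JUNB) and 24.5% of all. The EGR motif GCGNGGGCG was in DUSP2 and EGR1 and in 9.43% of all, and the ETS motif CCGGAAG was in IER2 and in 10.2% of all. The AP-1 motif TGANTCA and the full cAMP response element TGACGTCA, which contains TGACG, were in 0 of the 9 windows and in 7.73% and 1.84% of all. A match is a string of letters, and binding was not measured here. Sites outside the windows were not searched, so the lack of a match does not show that a gene lacks the site. Transcripts that start near the RefSeq start used hold all reads of EGR1, JUN and JUNB and 82.0% to 94.4% of those of IER2, FOS, EGR2 and DUSP2. They hold 46.5% of those of FOSB and 9.4% of those of NR4A1, most of whose reads were assigned to transcripts with other starts. The 1 JUN transcript counted starts at base 58784327 of chromosome 1, so the JUN bases printed above lie within it.

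Per transcript length, the members fell into 3 tiers in the control libraries of OCI-Ly7. The TPM means ± SD over 4 libraries were 44.9 ± 18.6 for IER2, 30.8 ± 3.68 for NR4A1, 20.1 ± 6.8 for DUSP2 and 11.4 ± 7.01 for JUNB. FOSB followed at 1.84 ± 0.935, JUN at 1.75 ± 0.445 and FOS at 0.83 ± 0.759 TPM. The EGR genes were lowest, with EGR3 at 0.215 ± 0.107, EGR1 at 0.197 ± 0.0373 and EGR2 at 0.174 ± 0.134 TPM. Library ranges did not overlap between JUNB and FOSB (4.61 to 21.2 against 0.765 to 3.01 TPM) or between FOS and EGR3 (0.425 to 1.97 against 0.0706 to 0.3 TPM), and every other pair of neighbours in this order overlapped. The single SUDHL4 control library had JUNB at 28.8, IER2 at 27.4, DUSP2 at 23.7 and NR4A1 at 11.5 TPM, then FOSB, JUN, FOS and EGR1 at 1.15 to 1.57 TPM, with EGR2 at 0.32 and EGR3 at 0.281 TPM. EGR2 and EGR3 rested on few reads in OCI-Ly7, with 2 to 46 and 5 to 22 reads per library, as did EGR1 in the controls, with 9 to 28 reads.

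In OCI-Ly7 the members' levels differed from library to library more than those of most genes, by a wide margin for 7 of the 10. The SD of log2(CPM + 0.5) over the 18 libraries was 1.36 for JUN, 1.3 for FOS, 1.24 for EGR1, 1.19 for FOSB and 1.18 for JUNB, each above that of at least 99.2% of the 16001 genes tested. It was 0.8 for IER2 and 0.68 for DUSP2, at the 96.3 and 93.3 percentiles, and NR4A1, EGR3 and EGR2 stood at the 55.3, 51.8 and 79.0 percentiles. Most levels of EGR2 and EGR3 lie below the 0.5 CPM that was added. Within condition and series, the SD was 0.9 for JUN and 0.84 for EGR1 (99.6 and 99.5 percentiles), against 0.54 for FOS and 0.37 for JUNB (98.1 and 94.0 percentiles).

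**Figure D1:**
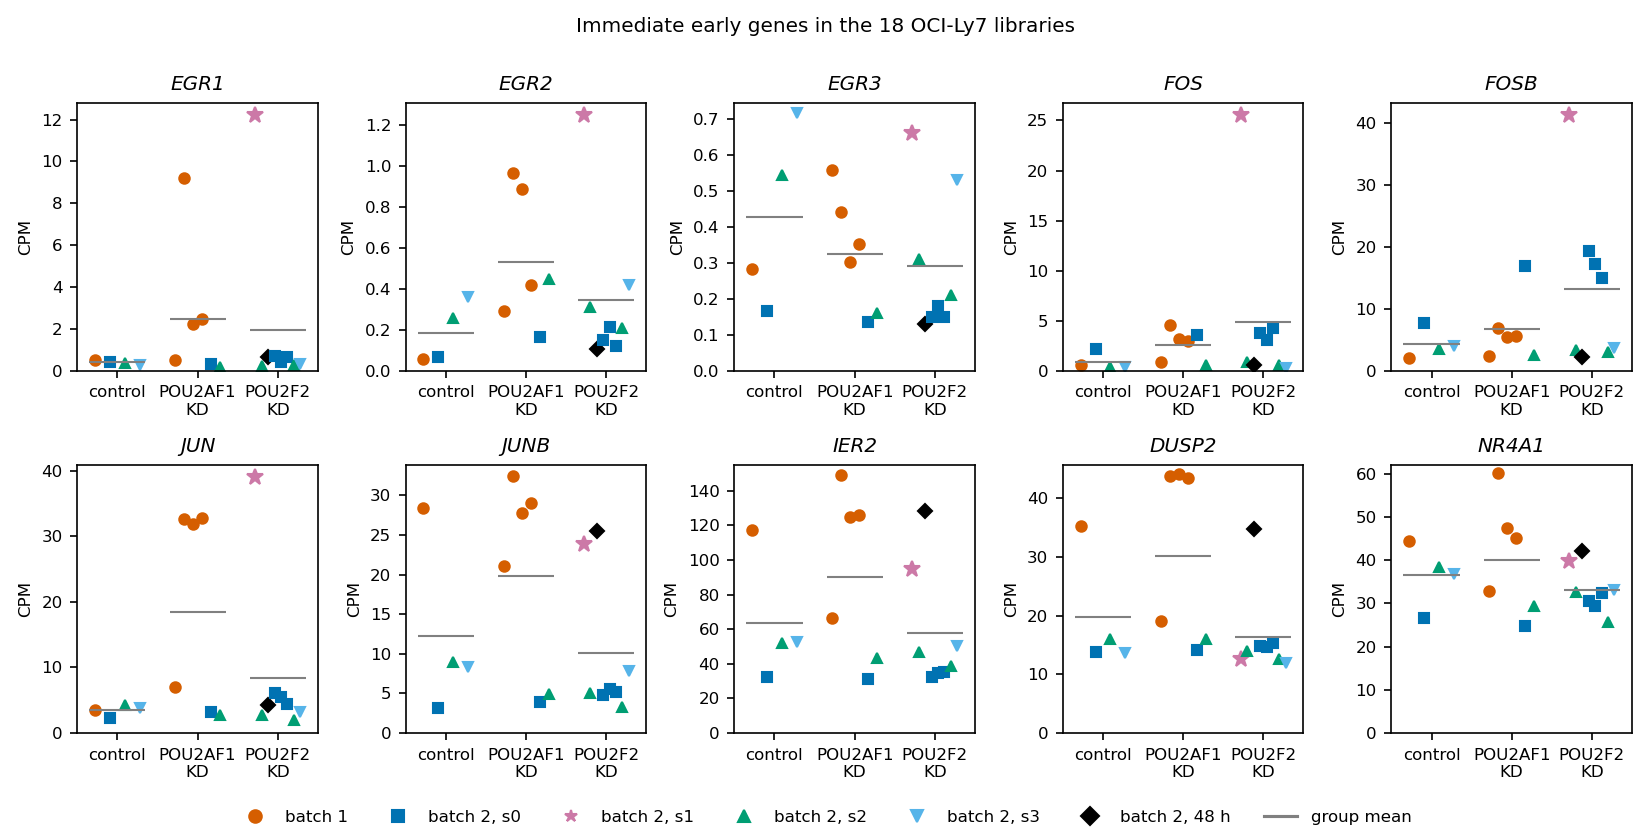
CPM (linear axes starting at 0) of each of the 10 genes in the 18 OCI-Ly7 libraries, by condition, with 1 point per library, colour and shape giving the batch and series, and grey lines the group means. JUNB, IER2 and DUSP2 are higher in batch 1 and in the 48 h library of the POU2F2 knockdown than in series s0, s2 and s3, and POU2F2 knockdown replicate 1, alone in series s1, is the highest library for EGR1, EGR2, FOS, FOSB and JUN.

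IER2, JUNB and DUSP2 were higher in batch 1 than in series s0, s2 and s3 of batch 2, with no overlap, in the controls as in the POU2AF1 knockdown. These were 3 of the 10 members, where the ranges of 14.2% of the 16001 tested genes did not overlap in this way and 8.67% were higher in batch 1. IER2 was at 117 CPM in the batch 1 control against 32.3, 52.0 and 52.3 CPM in the batch 2 controls. In the POU2AF1 knockdown it was at 66.6, 149, 125 and 126 CPM in batch 1 and at 31.3 and 43.5 CPM in batch 2. JUNB was at 28.4 CPM in the batch 1 control and 3.14, 8.94 and 8.38 CPM in the batch 2 controls, and at 21.1 to 32.4 CPM in batch 1 against 3.9 and 4.89 CPM in batch 2 after POU2AF1 knockdown. DUSP2 was at 35.3 CPM in the batch 1 control and 13.7 to 16.0 CPM in the others. Among the 8 POU2F2 knockdown libraries, replicate 3, which is marked 48 h, had the levels of batch 1 although its label says batch 2, with IER2 at 128, JUNB at 25.5 and DUSP2 at 34.7 CPM. The other 7 had DUSP2 at no more than 15.4 CPM, while replicate 1, of series s1, shared the high IER2 (94.9 CPM) and JUNB (23.9 CPM). NR4A1 ranges overlapped, with 32.8 to 60.3 CPM in batch 1, 42.2 CPM in the 48 h library, and 24.8 to 39.8 CPM in the rest. Batch cannot be told apart from whatever else differed between these libraries, and the labels do not say what a batch was.

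FOS and FOSB, which form AP-1 with JUN proteins, followed the series within batch 2. The 5 libraries of series s0, of all 3 conditions, had FOS at 2.17 to 4.28 CPM and FOSB at 7.73 to 19.4 CPM. The 4 libraries of s2 had FOS at 0.418 to 0.872 and FOSB at 2.53 to 3.57 CPM, and the 2 of s3 had FOS at 0.336 and 0.391 and FOSB at 3.64 and 4.04 CPM. The ranges of s0 and of s2 with s3 did not overlap for either gene, nor for IER2, which was lower in s0 (31.3 to 35.3 against 39.0 to 52.3 CPM). These were 3 of 10 members, fewer than the 43.6% of all tested genes that did not overlap (23.0% higher in s0), so the separation of the series is not particular to them. In s0 the control was the lowest of the 5 libraries for both. A list of 11 heat shock genes summed to 9980 to 11400 CPM in s0 and to 2620 to 4610 CPM in s1, s2 and s3, with 5470 to 9690 CPM in batch 1 and 8760 CPM in the 48 h library of the POU2F2 knockdown, and its part in these levels was not tested.

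POU2F2 knockdown replicate 1, the single library of series s1, stood above every other OCI-Ly7 library for 5 members. EGR1 was at 12.2 CPM there against 0.218 to 0.72 CPM in the other 7 POU2F2 knockdown libraries. FOS was at 25.5 against 0.336 to 4.28 CPM, FOSB at 41.3 against 2.25 to 19.4 CPM, JUN at 39.0 against 1.91 to 6.06 CPM, and EGR2 at 1.25 against 0.109 to 0.42 CPM. Its DUSP2, at 12.7 CPM, lay inside the range of the others. Since no control shares its series, this library's levels have no control to be set against within s1.

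JUN separated 3 of the 4 batch 1 POU2AF1 knockdown libraries from the rest. It was at 32.6, 31.8 and 32.8 CPM in replicates 2, 3 and 4, against 3.56 CPM in the batch 1 control and 7.05 CPM in replicate 1. In batch 2 it was at 3.24 and 2.78 CPM after POU2AF1 knockdown and at 2.31, 4.28 and 3.75 CPM in the controls, so the groups overlapped there. EGR1 in batch 1 had 9.19, 2.25 and 2.47 CPM in replicates 2, 3 and 4, 0.505 CPM in replicate 1 and 0.53 CPM in the control. Replicate 1 is the library with 25.8% mitochondrial reads, and that share's part in its low levels was not tested.

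Against the control library of their own batch or series, all 6 POU2AF1 knockdown libraries had more FOS, at 1.38 to 8.41 times the control. The 95% counting interval of this ratio included 1 in replicates 1 (0.974 to 2.8) and 6 (0.638 to 3.06). All 6 also had more EGR2, but on few control reads. With 3 reads in the batch 1 control and 2 in the s0 control, the EGR2 ratios ran from 2.44 (95% counting interval 0.437 to 24.8) to 17.0 (5.47 to 85.5), and in s2, with 8 control reads, the ratio was 1.74 (0.682 to 4.79). FOSB was above its control in 5 of 6 (0.708 to 3.41 times) and JUN in 5 of 6 (0.651 to 9.21 times). EGR1, JUNB, IER2 and NR4A1 were above it in 3 of 6 and EGR3 and DUSP2 in 4 of 6. The batch 1 libraries share 1 control, so they are not independent comparisons.

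For the 6 POU2F2 knockdown libraries that share a series with a control, JUN and JUNB lay on different sides of the control in s0 and s2. JUN was at 1.92 to 2.63 times the control in the 3 libraries of s0 and at 0.446 and 0.634 times in the 2 of s2. JUNB was at 1.53 to 1.79 times in s0 and 0.371 and 0.572 times in s2. The 3 libraries of s0 share 1 control and the 2 of s2 share another, and the POU2AF1 knockdown library set against the same controls had JUN at 1.41 times in s0 and 0.651 times in s2 and JUNB at 1.24 and 0.548 times, so a knockdown's level and that of the single control cannot be told apart here. EGR3 was below its control in 5 of 6 libraries (0.387 to 1.09 times), and FOS above it in 5 of 6 (0.859 to 2.09 times). For EGR3, with 5 to 19 reads per knockdown library, the counting interval of the ratio included 1 in all 6. The FOS interval included 1 in replicates 7 (0.704 to 3.37) and 8 (0.353 to 2.09).

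**Figure D2:**
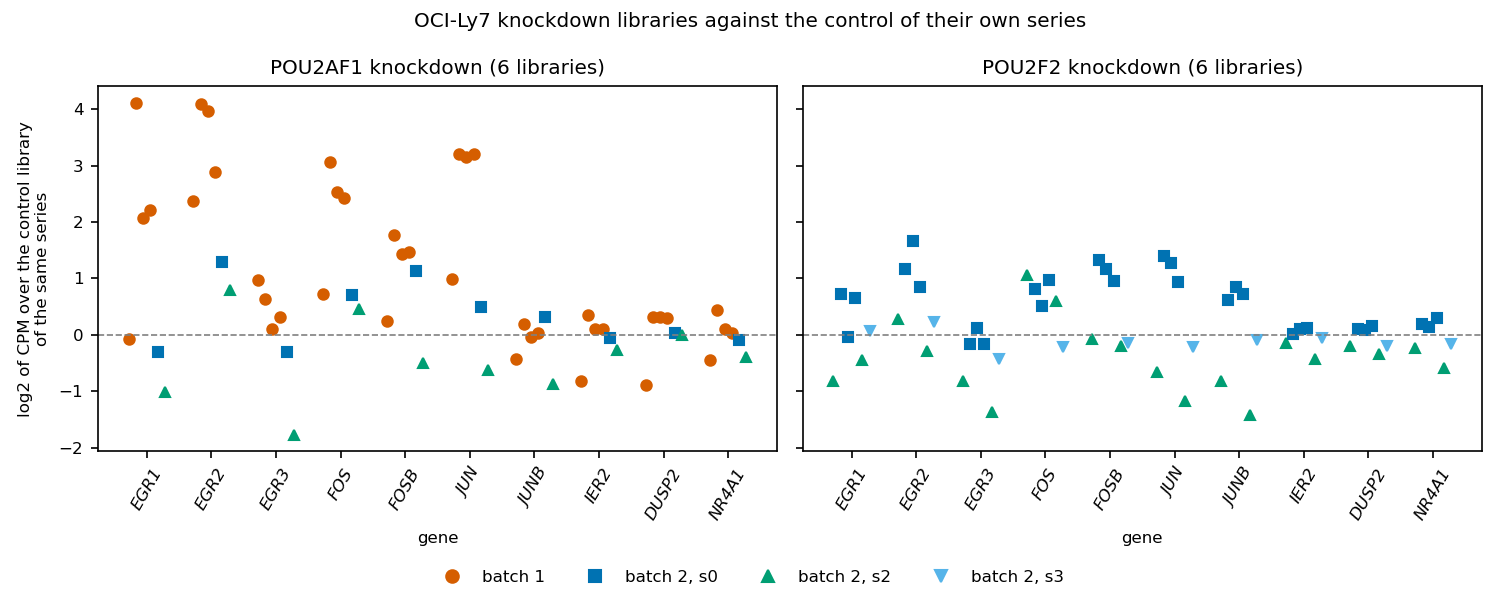
Log2 ratio of each gene's CPM in an OCI-Ly7 knockdown library to the control library of the same batch or series (vertical axis), by gene, with 1 point per library and 6 libraries per knockdown. For the POU2AF1 knockdown, FOS and EGR2 lie above 0 in all 6 libraries, and for the POU2F2 knockdown JUN and JUNB lie above 0 in the 3 libraries of s0 and below 0 in those of s2 and s3.

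Tested over all OCI-Ly7 libraries with batch in the model, no member passed in the POU2AF1 knockdown. By edgeR's quasi-likelihood test 0 of the 10 had an adjusted p below 0.05, where 0.887% of the 16001 genes tested were called, 0 had an unadjusted p below 0.05, and DESeq2 also called 0. The fitted log2 differences were 1.56 ± 1.25 (SE) for FOS, 1.39 ± 0.93 for EGR2, 1.1 ± 0.83 for FOSB, 0.84 ± 1.06 for JUN and 0.83 ± 1.59 for EGR1. They were 0.08 ± 0.3 for DUSP2, -0.16 ± 0.41 for IER2, -0.16 ± 0.19 for NR4A1, -0.39 ± 0.6 for JUNB and -0.76 ± 0.67 for EGR3. Leaving out 1 library at a time moved FOS between 0.92 (without POU2AF1 knockdown replicate 5) and 2.38 (without control replicate 7), EGR2 between 0.43 (without control replicate 1) and 2.06 (without knockdown replicate 5), and FOSB between 0.21 (without knockdown replicate 5) and 1.54 (without knockdown replicate 6). The median over the members was 0.45, and 0 over all genes tested. Fitted within batch 1, the values were 2.89 ± 0.91 for JUN, 3.46 ± 1.04 for EGR2, 2.79 ± 1.54 for EGR1 and 2.43 ± 0.91 for FOS, with edgeR adjusted p of 0.42, 0.4, 0.78 and 0.55, and within batch 2 they were -0.17 ± 1.08, 0.43 ± 1.03, -0.41 ± 1.73 and 1.08 ± 1.59. Batch 1 held a single control, so its fit rests on that library, and leaving it out of the whole fit gave -0.18 for JUN and -0.41 for EGR1. In the fits of batch 1 and batch 2 alone 0 of 10 members passed by edgeR, where 0.14% and 0.043% of genes did, and with the series as a block 0 of 10 passed, where 5.59% did. The lowest adjusted p in the block fit was that of EGR2 (1.79 ± 0.58, 0.099). The 18 T and NK cell markers summed to 197 to 275 CPM in these 6 libraries and to 149 to 187 CPM in the controls, mainly through TRBC2, a T cell receptor constant gene (154 to 211 against 89.4 to 116 CPM), and their part was not tested.

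In the POU2F2 knockdown of OCI-Ly7 the fitted values of 5 members leaned on 1 library. EGR1 was at 2.81 ± 1.24 (log2, SE), FOS at 2.5 ± 1.11, JUN at 1.63 ± 0.79, FOSB at 1.43 ± 0.76 and EGR2 at 0.97 ± 0.74. JUNB was at 0.67 ± 0.53, IER2 at 0.39 ± 0.36, DUSP2 at 0.18 ± 0.28, NR4A1 at 0.03 ± 0.17 and EGR3 at -0.44 ± 0.51. By edgeR 0 of the 10 members passed and 0% of the 16001 genes were called, and DESeq2 also called 0 members. EGR1 and FOS, 2 of 10, had an unadjusted p below 0.05, as did 283 of the 16001 genes, and both had an edgeR adjusted p of 1. The median over the members was 0.82, and 0 over all genes. Without replicate 1 the values came to 0.78 ± 0.7 for EGR1, 1.16 ± 0.8 for FOS, 0.56 ± 0.49 for JUN, 0.9 ± 0.66 for FOSB and 0.33 ± 0.62 for EGR2. Without replicate 3, the 48 h library, JUNB came to 0.33 ± 0.46, IER2 to 0.12 ± 0.29 and DUSP2 to -0.06 ± 0.18. Within batch 2 alone EGR1 was at 2.38 ± 1.35 and FOS at 2.31 ± 1.35, and with the series as a block, where replicate 1 has no weight, they were at 0.68 ± 0.89 and 0.98 ± 0.45, with 0 of 10 passing where 0.0812% of genes did. Compared directly, POU2F2 and POU2AF1 knockdown of OCI-Ly7 differed in 0 of the 10 members by edgeR (0 at an unadjusted p below 0.05, 0 by DESeq2), against 0.162% of all genes tested.

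**Figure D3:**
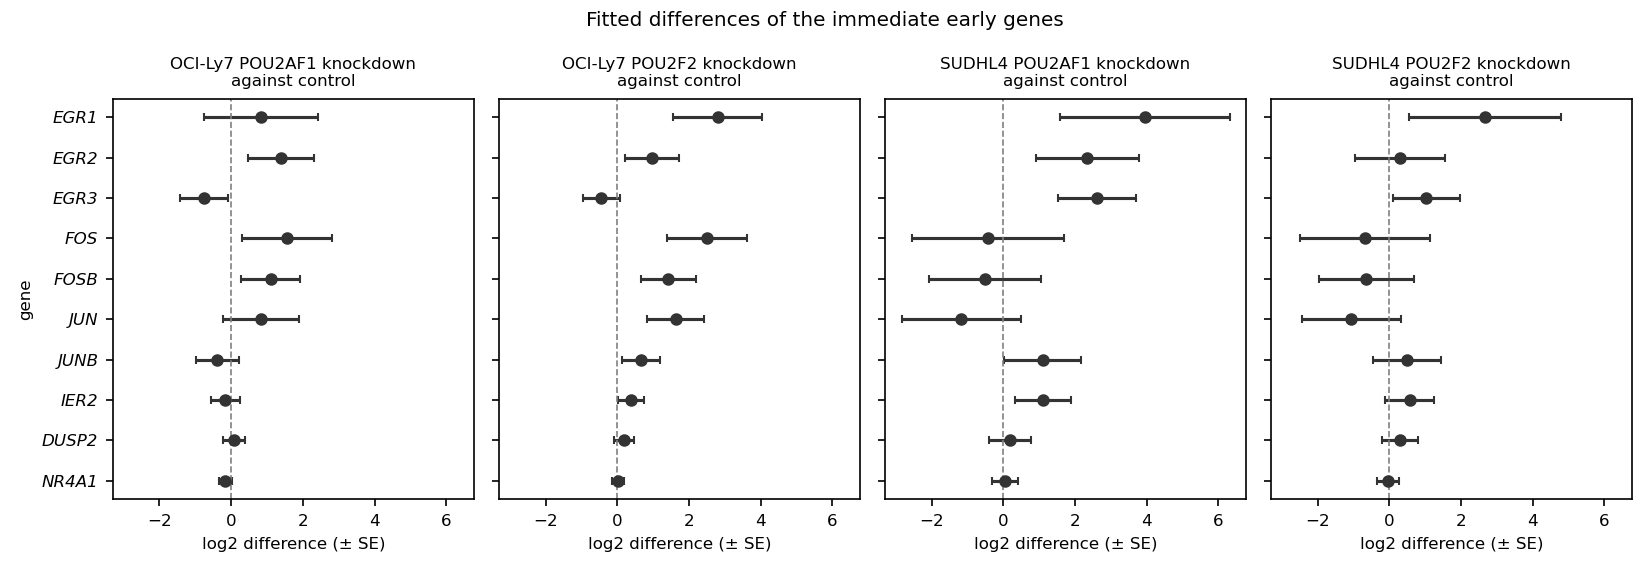
Fitted log2 difference from the control (horizontal axis, bars ± 1 SE from edgeR) of the 10 genes for both knockdowns in both lines. EGR1 is positive in all 4 panels with bars that reach furthest, FOS, FOSB and JUN are positive in both OCI-Ly7 panels and negative in both SUDHL4 panels, and no value has an adjusted p below 0.05 in these fits.

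In SUDHL4 the members split into 3 sets after POU2AF1 knockdown. The EGR genes were above the control, with EGR1 at 2.95 CPM in the control library and 45.5 CPM in the knockdown library, EGR3 at 0.582 and 3.58 CPM, and EGR2 at 0.437 and 2.22 CPM. JUNB was at 43.7 and 93.5 CPM, and IER2 at 52.2 and 113 CPM. FOS (2.1 and 1.55 CPM), FOSB (3.74 and 2.62 CPM) and JUN (4.18 and 1.84 CPM) were below the control, and DUSP2 (29.8 and 34.1 CPM) and NR4A1 (18.5 and 18.9 CPM) were near it. The ratio of the libraries was 15.4 for EGR1 (95% counting interval 13 to 18.4), 6.15 for EGR3 (4.12 to 9.51), 5.08 for EGR2 (3.17 to 8.51), 2.16 for IER2 (2.06 to 2.26), 2.14 for JUNB (2.03 to 2.26) and 0.44 for JUN (0.342 to 0.563). It was 0.699 for FOSB (0.556 to 0.877), 0.74 for FOS (0.546 to 1.0), 1.14 for DUSP2 (1.07 to 1.23) and 1.02 for NR4A1 (0.935 to 1.12). These intervals cover counting error only and compare 2 libraries, since neither group has a replicate.

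The POU2F2 knockdown libraries of SUDHL4 lay between the control and the POU2AF1 knockdown library for several members. EGR1 was at 22.7 and 15.0 CPM, JUNB at 63.2 and 58.3 CPM, IER2 at 80.6 and 74.3 CPM and EGR3 at 1.53 and 0.853 CPM, each above the control and below the POU2AF1 knockdown library. EGR2, at 0.73 and 0.346 CPM, lay on both sides of the control. FOS (1.48 and 1.13 CPM), FOSB (2.94 and 1.87 CPM) and JUN (2.48 and 1.5 CPM) were below the control in both libraries. FOS was also below the POU2AF1 knockdown library (1.55 CPM) in both, while FOSB and JUN lay on both sides of it (2.62 and 1.84 CPM). DUSP2, at 39.5 and 33.7 CPM, was above the control (29.8 CPM) and on both sides of the POU2AF1 knockdown library (34.1 CPM). NR4A1 was at 17.1 and 18.8 CPM.

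**Figure D4:**
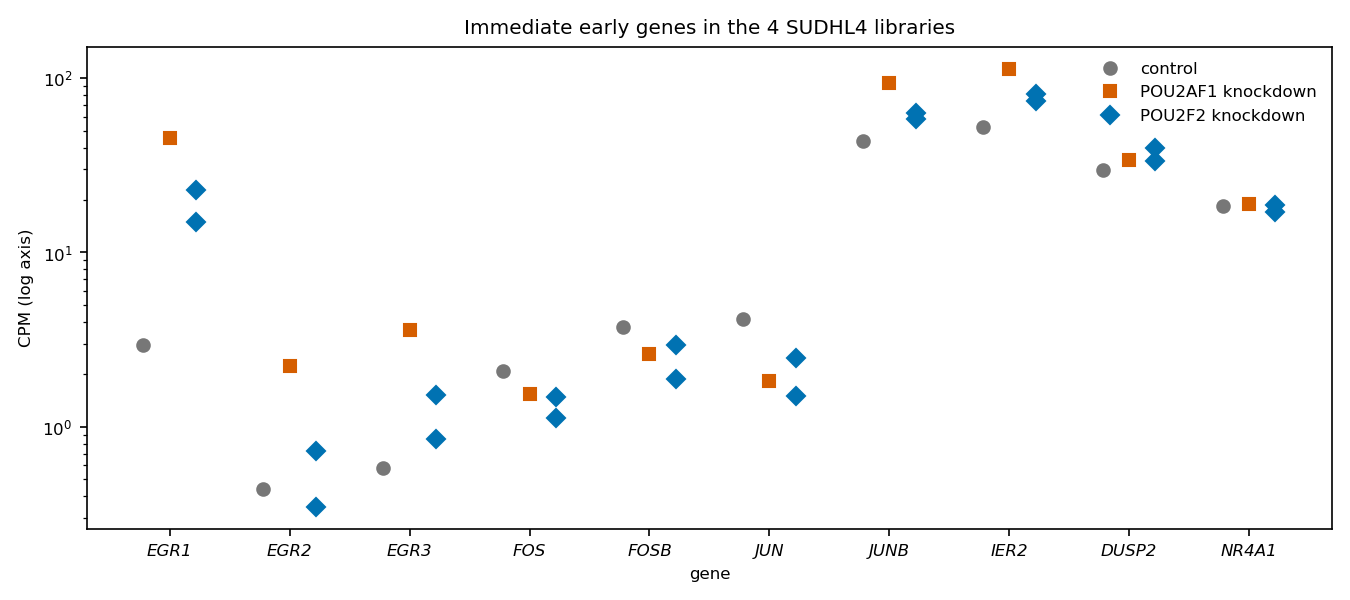
CPM (log axis) of the 10 genes in the 4 SUDHL4 libraries, with 1 point per library and 2 libraries for the POU2F2 knockdown. EGR1, JUNB and IER2 have the order control, POU2F2 knockdown, POU2AF1 knockdown, and FOS, FOSB and JUN lie below the control in all 3 knockdown libraries.

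Whether these SUDHL4 differences exceed the spread between libraries depended on which spread was used. In the fit of all 22 libraries, whose spread comes mainly from OCI-Ly7 (coefficient of variation 0.298), the POU2AF1 knockdown gave log2 values of 3.94 ± 2.37 for EGR1, 2.61 ± 1.08 for EGR3, 2.34 ± 1.44 for EGR2, 1.11 ± 0.78 for IER2, 1.1 ± 1.08 for JUNB and -1.18 ± 1.66 for JUN. FOSB was at -0.52 ± 1.56, FOS at -0.43 ± 2.13, DUSP2 at 0.19 ± 0.58 and NR4A1 at 0.04 ± 0.36. By edgeR 0 of 10 members passed, against 1.66% of the 18918 genes tested, and DESeq2 also called 0. EGR3 alone had an unadjusted p below 0.05, with an edgeR adjusted p of 0.3. Their median was 0.65, and 0 over all genes. In the fit of the 4 SUDHL4 libraries alone (coefficient of variation 0.078, 1 residual degree of freedom) 6 of 10 passed, where 36.8% of 16973 genes did. EGR1 (3.96, edgeR adjusted p = 0.025), EGR2 (2.36, 0.00079), EGR3 (2.63, 3.1e-05), JUNB (1.12, 2.5e-10) and IER2 (1.13, 1.8e-10) rose there and JUN fell (-1.17, 0.014). That fit assumes that the lone control and knockdown libraries vary as the 2 POU2F2 knockdown libraries do. With the series as a block in the fit of all libraries, EGR3 (edgeR adjusted p = 0.01) and IER2 (0.041) passed, 2 of 10, where 14.4% of genes did.

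For the POU2F2 knockdown of SUDHL4 the fit of all libraries gave 2.67 ± 2.11 for EGR1, 1.03 ± 0.94 for EGR3, 0.57 ± 0.68 for IER2, 0.48 ± 0.95 for JUNB, 0.3 ± 1.25 for EGR2 and 0.3 ± 0.51 for DUSP2. NR4A1 was at -0.04 ± 0.31, FOSB at -0.64 ± 1.32, FOS at -0.68 ± 1.81 and JUN at -1.07 ± 1.38. By edgeR 0 of 10 passed, where 0.0951% of genes did, DESeq2 called 0, and 0 had an unadjusted p below 0.05. In the fit of SUDHL4 alone 3 of 10 passed, where 7.35% of genes did: JUNB (0.51, edgeR adjusted p = 0.00032) and IER2 (0.6, 2.6e-05) rose and JUN (-1.04, 0.037) fell. The B cell markers summed to 3420 CPM in the control, 6290 CPM in the POU2AF1 knockdown and 4220 and 4690 CPM in the POU2F2 knockdown, and the myeloid markers to 1.25, 7.36, 2.77 and 2.98 CPM, and their part in the members' levels was not tested. In bulk RNA, a change in the share of cells that express a gene and a change per cell cannot be told apart.

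The difference between the lines in the response to a knockdown was tested as an interaction over all 22 libraries. For POU2AF1, 0 of 10 members passed by edgeR, against 0.798% of genes, and DESeq2 also called 0. EGR3 was the 1 member with an unadjusted p below 0.05, its response being higher in SUDHL4 by a log2 of 3.38 ± 1.25 (edgeR adjusted p = 0.29). The differences of FOS (-1.98 ± 2.47), FOSB (-1.6 ± 1.76) and JUN (-2.01 ± 1.96) did not pass (edgeR adjusted p of 0.91, 0.88 and 0.85). With the series as a block the EGR3 value was 2.91 and passed (adjusted p = 0.018), as 10.3% of genes did. For POU2F2, 0 of 10 passed by edgeR, against 0.0106% of genes, DESeq2 called 0, and 0 had an unadjusted p below 0.05. In the fit of all libraries, the opposite signs of FOS, FOSB and JUN in the 2 lines are therefore not shown to differ beyond the spread. For POU2AF1 a fit of batch 1 alone, with a lone control library per line, was also run. The median difference over the members was 0.07 there and 0.58 in the fit of all libraries.

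Between the control libraries of the lines, NR4A1 was lower in SUDHL4, at 18.5 CPM against 26.6 to 44.4 CPM in the 4 OCI-Ly7 controls. Its log2 difference was -1.46 ± 0.34 (edgeR adjusted p = 0.0034), and it was the 1 of 10 members called, where 23.5% of genes were, with 11% of genes lower in SUDHL4. IER2, at 52.2 CPM, lay inside the range of the OCI-Ly7 controls (32.3, 52.0, 52.3 and, in batch 1, 117 CPM), and the fit with batch gave -1.3 ± 0.72 (edgeR adjusted p = 0.22). Without the batch term the NR4A1 value was -0.99 and did not pass (adjusted p = 0.066), and with the series as a block both NR4A1 and IER2 (-1.23, adjusted p = 0.005) passed, where 44.5% of genes did. Within batch 1, where 27.9% of genes passed, NR4A1 was at -1.27 (adjusted p = 0.029). All SUDHL4 libraries were of batch 1 and the line was grown in another medium. Line, medium and whatever else differed between these libraries cannot be told apart.

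Genes around the members were read from fixed lists. These lists were chosen with earlier results of these data known, so their counts and medians describe the data and are no independent evidence. Of 32 other immediate early genes, 24 were tested in OCI-Ly7 and 0 passed in either knockdown by edgeR, with 1 and 2 at an unadjusted p below 0.05 and medians of 0.05 and 0.31. In SUDHL4 25 were tested, and 1 rose and 1 fell after POU2AF1 knockdown by edgeR, a comparison in which 1.66% of all genes were called. ZFP36L1, which binds AU-rich RNA elements and promotes decay, rose from 52.2 to 255 CPM (log2 2.29 ± 0.45, edgeR adjusted p = 0.011), and TIPARP, an ADP-ribosyltransferase, fell from 92.3 to 54.9 CPM (-0.75 ± 0.18, 0.039). The TIPARP call was lost in 13 of 27 alternatives (adjusted p up to 0.7), among them 10 fits that left out 1 library, and the ZFP36L1 call was lost without the batch term (0.073). After POU2F2 knockdown 0 of the 25 passed by edgeR, with 1 at an unadjusted p below 0.05.

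Of 13 feedback genes of the ERK pathway, 9 were tested in each line. DUSP6, the cytoplasmic ERK phosphatase, rose after POU2AF1 knockdown of SUDHL4, from 0.27 to 6.66 CPM (log2 4.6 ± 0.99, edgeR adjusted p = 0.02), and was at 1.19 and 0.692 CPM after POU2F2 knockdown. It was the 1 of 9 that passed, beside 1.66% of all genes, and the list's median was 1.05 against 0 for all genes. In OCI-Ly7 DUSP6 lay at 0.125 to 1.04 CPM over all 18 libraries, and 0 of the 9 passed in either knockdown by edgeR, with 1 and 3 at an unadjusted p below 0.05. Of 13 genes of the ERK cascade, all tested, 0 passed by edgeR in SUDHL4 after either knockdown, with 2 and 0 at an unadjusted p below 0.05.

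Of 15 genes for SRF, its TCF and MRTF partners, CREB and MEF2 proteins, 0 passed by edgeR after POU2AF1 or POU2F2 knockdown in either line, with 4 and 0 at an unadjusted p below 0.05 in OCI-Ly7 and 4 and 0 in SUDHL4. NAB1 and NAB2, corepressors of EGR proteins, did not pass either, with 1 at an unadjusted p below 0.05 in the POU2AF1 knockdown of OCI-Ly7 and 0 in the other 3 comparisons. Of 11 heat shock genes 0 passed by edgeR after either knockdown in either line, with 0 at an unadjusted p below 0.05. DESeq2 counts were taken for the members alone. With the series as a block, the POU2AF1 knockdown gained calls in these lists, as it did over all genes (5.59% in OCI-Ly7 and 14.4% in SUDHL4). In OCI-Ly7, 3 other immediate early genes rose, 1 ERK feedback gene rose and 2 fell, 2 upstream regulators rose and 2 fell, and 1 activation gene rose. In SUDHL4, 4 other immediate early genes rose and 3 fell, and 2 ERK feedback genes, 3 upstream regulators and 6 activation genes rose. Of the 13 ERK cascade genes 2 fell there, as did 1 corepressor and 1 heat shock gene.

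Lymphocyte activation genes were the other list with calls. After POU2AF1 knockdown of SUDHL4, 2 of 13 rose by edgeR, where 1.66% of all genes were called. TNF, the inflammatory cytokine, went from 3.2 to 69.6 CPM (log2 4.44 ± 0.83, adjusted p = 0.0072), and LTA, which encodes lymphotoxin alpha, from 2.62 to 16.1 CPM (2.62 ± 0.63, 0.039, lost in 6 of 27 alternatives, adjusted p up to 0.095). TNF was at 20.3 and 16.4 CPM after POU2F2 knockdown. The list's median was 1.16 against 0 for all genes. In OCI-Ly7 0 of the 10 tested passed in either knockdown by edgeR, with 1 and 0 at an unadjusted p below 0.05. In the test between lines, the TNF response to POU2AF1 knockdown was higher in SUDHL4 (4.1 ± 0.88, edgeR adjusted p = 0.03) and that of MYC lower (-1.65 ± 0.33, 0.017). MYC, the growth-promoting transcription factor that is itself an early response gene, was at 531 CPM in the SUDHL4 control and 241 CPM in the knockdown, and at 247 to 309 CPM in the OCI-Ly7 controls and 392 to 495 CPM in the knockdown. The TNF difference was lost within batch 1 (0.071), with the replicate number as a block (0.098), and without OCI-Ly7 POU2AF1 knockdown replicate 5 (0.054) or 6 (0.052).

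The genes outside the list whose log2 CPM followed the members' mean z-score most closely over the 18 OCI-Ly7 libraries were IER5 (Pearson r = 0.958), NFKBIA (0.922), SLC25A25 (0.905), RELB and ENSG00000279518 (0.896 each), NR4A3 and RASGRP2 (0.895 each), ZNF850 (0.893), LRCH4 (0.891) and PTTG1IP (0.887). IER5 and NR4A3 are early response genes, NFKBIA encodes the NF-kB inhibitor IκBα, and RELB is an NF-kB subunit. IER5 was at 38.1 CPM in POU2F2 knockdown replicate 1, at 28.7 to 30.4 CPM in the batch 1 POU2AF1 knockdown replicates 2 to 4, and at 10.7 to 18.6 CPM in the other 14. Of the members, JUN (0.961) and EGR1 (0.937) followed the mean most closely and EGR3 (0.469) and FOSB (0.274) least. Each member is part of that mean, which raises its own r, so these values cannot be set against those of genes outside the list. These libraries fall into batches and series and share their normalisation, so the r values describe that structure as well. When condition and series were first removed, the closest genes were ANKRD11 (0.975), ISYNA1 (0.974), BRD1 (0.969), BCL9L, CXXC5 and DDR1 (0.967 each), SETD1B (0.964), B3GNT7 (0.961), RASGRP2 (0.959) and ZC3H4 (0.95), and RASGRP2 was the 1 gene on both lists of 10. Several of these set POU2AF1 knockdown replicate 1, the library with 25.8% mitochondrial reads, apart from replicates 2 to 4, with ANKRD11 at 205 against 304 to 359 CPM and BCL9L at 55.8 against 116 to 156 CPM, and how far the ranking rests on that library was not tested. In that second measure POU2F2 knockdown replicates 1 and 3 carry no weight.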

How the data were processed

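RNA was sequenced as stranded, paired-end mRNA libraries. Per the submitters' processing notes, the tools were fastp and Salmon 1.5.1 and the build GRCh38.p13. The annotation release is not given in the sources used here. The values the authors deposited are estimated counts and TPM per transcript. Transcripts were matched without version to GENCODE 29 genes (98.36% to 98.89% of reads), and counts and TPM were summed per gene and counts rounded. Files held 24959865 to 53155548 reads. File pairs of 1 group that differed by less than 1.5 times the sampling noise were merged (3 pairs, ratio up to 1.151, next 2.39) and counted as 1 sample, and an OCI-Ly7 control file that equalled the sum of 2 others within 2 reads for 93.3% of its genes was dropped, leaving 22 of 26.

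Tests used edgeR 4.0.16 (TMM, filterByExpr minimum count 10, robust quasi-likelihood) with batch, on OCI-Ly7 or on all libraries, with Benjamini-Hochberg adjustment over all genes tested and calls below 0.05, and DESeq2 1.42.0 as an alternative. The edgeR step was tested on simulated data. For SUDHL4 the fit lets the unreplicated groups borrow the spread of the replicated ones. Levels are TMM-normalised CPM, counting intervals are exact binomial at 95%, and log2 levels used a pseudocount of 0.5 CPM. All 10 members were named; other genes were named where a list's gene was called or was among the 10 most alike in pattern. The members and lists were chosen with earlier results of these data known. Same-numbered libraries did not vary together (r from -0.5 to 0.595 over 10 pairs), so replicate numbers were not used as pairs. Libraries of 1 series of batch 2 did vary together across conditions (r from 0.295 to 0.67), while pairs within batch 1 had r from -0.297 to -0.101. The main fits hold batch but not series. In OCI-Ly7 the coefficient of variation was 0.297 in the main fit and 0.146 with the series as a block. Upstream sequences are RefSeq's on GRCh38.p14. The result of the ERK cascade list in OCI-Ly7 is not reported here.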

Additional observations from a re-analysis of the deposited data

Results flagged for a closer look

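In each of the 3 OCI-Ly7 groups, each member's highest and lowest library was compared with its neighbour by Dixon's gap test, in 30 groups in all. For independent values with a normal spread the test flags about 1 in 20 groups. CPM from groups that mix batches and series need not be such values, and members varied together. The rate is therefore no measure of how many flags to expect here. POU2F2 knockdown replicate 1 stood apart from the other 7 libraries of its group for EGR1 (12.2 CPM), EGR2 (1.25 CPM), FOS (25.5 CPM), FOSB (41.3 CPM) and JUN (39.0 CPM), and replicate 3 for DUSP2 (34.7 CPM). In the POU2AF1 knockdown, replicate 2 stood apart for EGR1 (9.19 CPM) and replicate 5, of series s0, for FOSB (17.0 CPM). Among the controls, replicate 7, also of s0, stood apart for FOS (2.17 CPM) and replicate 1, the batch 1 control, for DUSP2 (35.3 CPM). All 10 were the highest library of their group.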

How the results depend on the processing

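The number of members called stayed at its value in every fit that left out 1 library (0 to 0, and 1 to 1 between the control libraries of the lines; a lone SUDHL4 library could not be left out of its own comparison), with RLE size factors, with DESeq2 and without the low count filter. It moved for SUDHL4 in the fit of SUDHL4 alone (6 for POU2AF1, 3 for POU2F2), with the series block (2 for POU2AF1 in SUDHL4, 1 for the line difference of the POU2AF1 response, 2 between control libraries), and to 0 between control libraries without the batch term. The coefficient of variation was 0.078 in the SUDHL4 fit and 0.147 with the series block, against 0.298. With the replicate block 0 members were called in OCI-Ly7, with 742, 0 and 22 genes called in all for POU2AF1, for POU2F2 and between them; in the fit of all libraries, where this block was chosen after seeing the data, it changed no count of members. Over all genes DESeq2 called more: 327 against 142 for POU2AF1, 5 against 0 for POU2F2 and 85 against 26 between them in OCI-Ly7, and 842 against 314 and 66 against 18 in SUDHL4.

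NR4A1, the called member, kept its direction between control libraries under every alternative run. The log2 values below, none of them called, changed sign, and the cause was not tested. In the POU2AF1 knockdown of OCI-Ly7, without the batch term JUNB was 0.71, IER2 0.52 and NR4A1 0.14; with the replicate block EGR3 was 0.86, JUNB 0.1, IER2 0.08 and DUSP2 -0.47; in batch 2 EGR1 was -0.41 and JUN -0.17; in batch 1 EGR3 was 0.56, IER2 0.02 and NR4A1 0.09. In the POU2F2 knockdown of OCI-Ly7, without the batch term JUNB was -0.26, IER2 -0.13, DUSP2 -0.26 and NR4A1 -0.13; with the series block JUNB was -0.13, IER2 -0.05, DUSP2 -0.07 and NR4A1 -0.04; with the replicate block EGR3 was 0.51, DUSP2 -0.38 and NR4A1 -0.06; in batch 2 NR4A1 was -0.01; with replicate 3 placed in batch 1 DUSP2 and NR4A1 were -0.06. Leaving out 1 library gave ranges across 0 of -0.41 to 1.5 for EGR1 and -0.18 to 1.46 for JUN in the POU2AF1 knockdown of OCI-Ly7, -0.72 to 0.04 for EGR3, -0.06 to 0.27 for DUSP2 and -0.07 to 0.16 for NR4A1 in its POU2F2 knockdown, and -0.33 to 0.74 for EGR2 and -0.11 to 0.03 for NR4A1 in the POU2F2 knockdown of SUDHL4. The few reads of EGR2 and EGR3 in OCI-Ly7 limit what could be detected there.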
